A study of Arabidopsis thaliana with 12 samples.

Results

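The genes described here are the 10 core components of gibberellin perception in Arabidopsis thaliana, taken by gene identifier from a table of 32833 genes, of which 18897 carried enough counts to be tested. They are the DELLA repressors GAI (AT1G14920), RGA1 (AT2G01570), RGL1 (AT1G66350), RGL2 (AT3G03450) and RGL3 (AT5G17490), the gibberellin receptors GID1A (AT3G05120), GID1B (AT3G63010) and GID1C (AT5G27320), and the F-box proteins SLY1 (AT4G24210) and SNE (AT5G48170, SLY2 in RefSeq). All 10 passed the filter on low counts. RNA was sequenced from freshly harvested seeds in 12 libraries, 3 in each of 4 groups: seeds of the mutant erf4-1 imbibed for 6 h, Col-0 seeds imbibed for 6 h, dry erf4-1 seeds and dry Col-0 seeds. The mutant is in the Col-0 background and is labelled as a knock out of ERF4, a transcriptional repressor of the ethylene response factor family, and Col-0 is the wild type; no transgene or further treatment is given for any group. Whole seeds were extracted, so embryo, endosperm and seed coat are mixed in each library, and fewer cells of a type and less RNA per cell cannot be told apart. Whether the 3 replicates of a group are seeds of separate plants is not given, so a p-value here reflects the spread among the libraries alone, part or all of which may be technical.

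The ERF4 transcript itself went against the label in some of the mutant libraries. It was measured as CPM, a count divided by the library total and scaled by TMM factors, and stood at 1.67, 7.03 and 14.9 CPM in replicates 1, 2 and 3 of the imbibed seeds labelled erf4, against 21.03, 15.70 and 16.997 CPM in imbibed Col-0 seeds. In dry seeds it stood at 3.88, 9.003 and 15.3 CPM in the libraries labelled erf4 and at 15.9, 13.6 and 12.5 CPM in those of Col-0. Replicate 3 labelled erf4 was thus at the Col-0 level in dry seeds, and neither contrast passed the test (adjusted p = 0.387 in imbibed and 0.691 in dry seeds, edgeR). Libraries are therefore called "labelled erf4" below. Total counts ranged from 31787283 to 42590777 per library, and 3 counts corresponded to 0.0604 to 0.121 CPM. Seed markers (10 genes for storage, oil body and late embryogenesis proteins) summed to 65713 CPM or more in every library.

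DELLA proteins are nuclear repressors that hold back germination and growth. When gibberellin binds a GID1 receptor, the receptor grips the DELLA protein by its N-terminal DELLA motif, and the F-box protein SLY1, the substrate-binding part of an SCF ubiquitin ligase, marks the DELLA protein for destruction by the proteasome. SNE is a homologue that can take over part of the role of SLY1. In seeds RGL2 is known as the main DELLA repressor of germination, while GAI and RGA1 are known chiefly from stem growth.

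The 10 genes lie on all 5 chromosomes. In TAIR10 coordinates, GAI spans chr1:5148982-5151415 on the plus strand, RGA1 chr2:255247-257568 on the minus strand, RGL1 chr1:24748105-24750186 on the plus strand, RGL2 chr3:819337-821652 on the minus strand and RGL3 chr5:5763989-5766246 on the minus strand. GID1A spans chr3:1430363-1432844, GID1B chr3:23289243-23291486, GID1C chr5:9628990-9631291 and SLY1 chr4:12563279-12564482, all on the plus strand, and SNE spans chr5:19532270-19533390 on the minus strand. Each DELLA and F-box gene is annotated with 1 exon and no intron, and each GID1 gene with 2 exons and 1 intron. None of the 10 overlaps another annotated gene. No BLAST alignment of 100 bp or more to another annotated gene averaged 95% identity or above. The highest averages were 84.2% over 1151 bp for GAI with RGA1 and 83.5% over 1002 bp for GID1A with GID1C. Shorter windows inside an alignment were not scanned, so how far reads of close relatives can be told apart was not tested. The coding sequences of GAI and RGA1 share 82.4% of aligned bases, those of RGL2 and RGL3 77.2%, those of GID1A and GID1C 83.8%, and those of SLY1 and SNE 61.5%.

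The 60 bases that begin at the DELLA motif lie in the N-terminal domain that the receptor holds, which also has motifs beyond them, and they show how far the 5 transcripts differ at the site they are named for. They are given 5′ to 3′ on the coding strand, from the RefSeq TAIR10.1 genome, with the 5 codons of the motif in capitals. The stretches lie at chr1:5149495-5149554 (GAI), chr2:257156-257215 (RGA1), chr1:24748420-24748479 (RGL1), chr3:821091-821150 (RGL2) and chr5:5765729-5765788 (RGL3).
GAI: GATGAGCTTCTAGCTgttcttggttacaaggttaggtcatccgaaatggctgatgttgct
RGA1: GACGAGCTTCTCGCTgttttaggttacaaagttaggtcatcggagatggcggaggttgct
RGL1: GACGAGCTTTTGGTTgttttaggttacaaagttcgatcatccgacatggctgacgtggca
RGL2: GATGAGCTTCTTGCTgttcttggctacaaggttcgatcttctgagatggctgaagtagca
RGL3: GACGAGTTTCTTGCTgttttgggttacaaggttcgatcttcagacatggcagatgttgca
Set against GAI, RGA1 differed at 9 of the 60 bases, RGL2 at 10, RGL3 at 12 and RGL1 at 13. Most of these differences were silent. Of the 20 codons, 1 encoded another residue in RGA1 and in RGL2, and 2 did so in RGL1 and in RGL3. Within the capitals, 1 codon encoded another residue in RGL1 and in RGL3, and none did in RGA1 or RGL2.

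Levels of different genes were compared as TPM, a relative abundance of transcripts that corrects for exonic length. GID1A had the highest mean of the 10 in every group, at 95.2 ± 6.11 TPM in imbibed seeds labelled erf4, 106.0 ± 9.88 TPM in imbibed Col-0 seeds, 106 ± 2.80 TPM in dry seeds labelled erf4 and 148 ± 8.41 TPM in dry Col-0 seeds (SD, n = 3 each). In imbibed seeds labelled erf4 its range overlapped that of the next gene, RGL2 (84.3 ± 14.2 TPM), and in the other 3 groups it stood apart from the next gene. In dry seeds RGL3 came second in both genotypes, at 40.4 ± 9.90 TPM in libraries labelled erf4 and 36.9 ± 3.87 TPM in Col-0, apart from GID1C below it. In imbibed Col-0 seeds the second place went to RGA1 (73.6 ± 11.4 TPM), whose range overlapped that of RGL2 (61.1 ± 4.81 TPM). RGL1, GID1B and SNE held the 3 lowest means in every group, between 0.118 and 2.28 TPM, and most neighbours among these 3 overlapped.

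The order among the DELLA transcripts differed between dry and imbibed seeds. RGL3 made up 46.9 ± 9.75% of the summed DELLA TPM in dry seeds labelled erf4 and 53.8 ± 6.12% in dry Col-0 seeds. In imbibed seeds it made up 14.3 ± 2.86% in libraries labelled erf4 and 11.998 ± 0.979% in Col-0. RGA1 held 30.9 ± 1.11% of the imbibed and 10.8 ± 2.35% of the dry sum in libraries labelled erf4, and 34.9 ± 2.95% of the imbibed and 11.2 ± 2.88% of the dry sum in Col-0. RGL2 held 32.7 ± 2.29% of the imbibed and 20.7 ± 7.09% of the dry sum in libraries labelled erf4, and 29.1 ± 1.63% of the imbibed and 13.8 ± 1.72% of the dry sum in Col-0. GAI kept a similar share throughout, with group means between 21.0 and 23.6%. RGL1 never passed 0.848% in any library. The shares of RGL3 and RGA1 did not overlap between imbibed and dry libraries of either genotype, and those of RGL2 did not either.

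**Figure D1:**
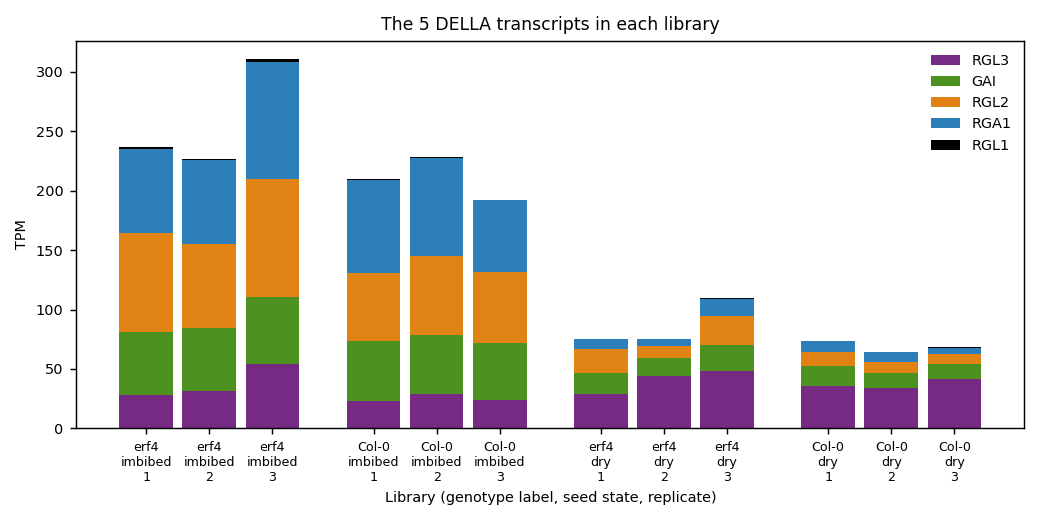
Stacked bars of the 5 DELLA transcripts in TPM (vertical axis) for each of the 12 libraries (horizontal axis, by genotype label, seed state and replicate). RGL3 is the largest block in all 6 dry libraries, and RGA1 and RGL2 are the largest blocks in the 6 imbibed ones, whose stacks reach 192 TPM or more.

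The summed DELLA level was higher in imbibed than in dry seeds. It reached 237, 227 and 311 TPM in imbibed seeds labelled erf4, against 75.0, 75.6 and 109 TPM in dry ones. For Col-0 it reached 210, 229 and 192 TPM in imbibed seeds, against 73.5, 64.4 and 68.1 TPM in dry ones. Imbibed and dry libraries did not overlap in either genotype. Among the libraries labelled erf4, replicate 3 had the highest sum in both states, and it is the replicate whose ERF4 level was nearest to Col-0. A relation between the sum and ERF4 was not tested. TPM carries no TMM factor, and these factors were 0.740 to 0.929 in dry and 1.07 to 1.29 in imbibed libraries. Rises on imbibition are thus larger in TPM than in TMM-scaled CPM. GAI in Col-0 averaged 49.5 TPM imbibed and 14.5 TPM dry, but 67.8 CPM imbibed and 29.8 CPM dry.

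Imbibed against dry seeds is the comparison in which these genes differed. By edgeR's quasi-likelihood test, with Benjamini-Hochberg adjustment over all genes tested and a call at an adjusted p under 0.05, 9 of the 10 were called in Col-0, against 52.5% of all genes tested, and 9 in the libraries labelled erf4, against 55.5% of all genes. In both genotypes the 9 were the same: GAI, RGA1, RGL1, RGL2, SLY1 and SNE rose, RGL3, GID1A and GID1C fell, and GID1B was not called. Of all genes tested, 28.4% rose and 27.2% fell in libraries labelled erf4, and 27.2% rose and 25.2% fell in Col-0. Scaling by total counts in place of TMM factors, an alternative chosen after seeing the data, raised the median log2 fold change of all genes by 0.503 in libraries labelled erf4 and by 0.485 in Col-0, and by 0.13 between genotypes in imbibed and 0.111 in dry seeds. Under it 45.6% of all genes rose and 14.0% fell in libraries labelled erf4, and 44.7% rose and 12.5% fell in Col-0. Changes are therefore relative to the TMM scale, and the members whose call depends on it are named below. The median log2 fold change of the 10 genes was 0.89 in libraries labelled erf4, beside 0.04 for all genes tested, and 1.28 in Col-0, beside 0.05 for all genes tested.

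GAI, a DELLA repressor of stem growth, rose in both genotypes. It had 71.5, 70.7 and 66.5 CPM in imbibed seeds labelled erf4, against 35.0, 35.0 and 39.4 CPM in dry ones. In Col-0 it had 67.0, 65.6 and 71.0 CPM in imbibed seeds, against 32.8, 26.5 and 30.1 CPM in dry ones. Every imbibed library was above every dry one. GAI changed by a log2 fold change of 0.93 ± 0.11 (SE) in libraries labelled erf4 (adjusted p = 1.3e-05, edgeR) and 1.19 ± 0.11 in Col-0 (adjusted p = 2.4e-06, edgeR).

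RGA1, the closest relative of GAI, had a larger fold change. It had 90.6, 90.2 and 110.8 CPM in imbibed seeds labelled erf4, against 14.7, 14.3 and 24.7 CPM in dry ones. Col-0 seeds had 99.2, 103.5 and 84.6 CPM when imbibed, against 16.9, 16.4 and 11.6 CPM when dry. The 2 states were well apart, and replicate 3 was the highest dry library labelled erf4 and the lowest dry library of Col-0. RGA1 was 5.42-fold higher in imbibed seeds labelled erf4 (log2 fold change 2.44 ± 0.21, adjusted p = 1.3e-06, edgeR) and 6.40-fold higher in imbibed Col-0 seeds (2.68 ± 0.22, adjusted p = 8.5e-07, edgeR).

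RGL2, the main germination repressor of the family, rose as well. It had 107.7, 89.0 and 110.8 CPM in imbibed seeds labelled erf4, against 38.6, 21.5 and 40.6 CPM in dry ones. Imbibed Col-0 seeds had 73.0, 83.9 and 82.2 CPM, against 20.5, 17.8 and 17.5 CPM in dry ones. All imbibed libraries lay above all dry ones, and replicate 2 labelled erf4 was the lowest of its group in both states. The level was 3.05-fold higher in imbibed seeds labelled erf4 (log2 fold change 1.61 ± 0.20, adjusted p = 1.6e-05, edgeR) and 4.29-fold higher in imbibed Col-0 seeds (2.099 ± 0.20, adjusted p = 2.8e-06, edgeR).

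RGL3, a DELLA repressor known to respond to jasmonate, was the member of the family that fell. It had 35.1, 38.4 and 59.3 CPM in imbibed seeds labelled erf4, against 54.0, 92.5 and 79.2 CPM in dry ones. Its level in Col-0 was 28.3, 35.9 and 32.1 CPM in imbibed seeds, against 63.1, 64.1 and 86.3 CPM in dry ones. The Col-0 groups were apart, while imbibed replicate 3 labelled erf4 lay above dry replicate 1. Within each number the imbibed library labelled erf4 was below the dry one. The log2 fold change was −0.76 ± 0.22 in libraries labelled erf4 (adjusted p = 0.0109, edgeR) and −1.15 ± 0.23 in Col-0 (adjusted p = 0.00091, edgeR). With total counts the change in libraries labelled erf4 was −0.23 and no longer called (adjusted p = 0.361), and without both libraries of number 2 labelled erf4 it was −0.50 (adjusted p = 0.133). In Col-0 the call held with total counts, at −0.65 (adjusted p = 0.0192).

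RGL1, also a DELLA repressor, was close to the detection limit. It had 110, 40 and 132 counts in imbibed seeds labelled erf4, against 6, 2 and 18 counts in dry ones. In Col-0 it had 44, 64 and 16 counts in imbibed seeds, against 6, 10 and 4 counts in dry ones. On the CPM scale imbibed and dry libraries did not overlap in either genotype. The log2 fold change was 2.86 ± 0.73 in libraries labelled erf4 (adjusted p = 0.00465, edgeR) and 2.24 ± 0.74 in Col-0 (adjusted p = 0.0212, edgeR). The Col-0 call was lost without dry replicate 1 (adjusted p = 0.0617), without dry replicate 3 (0.06705), without imbibed replicate 2 (0.0853) and with the letter that ends a library's name, b or r, as a covariate (0.125). The letter b ended the names of 2 dry Col-0 libraries and 1 dry library labelled erf4, and of no imbibed library; what it stands for is not given.

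**Figure D2:**
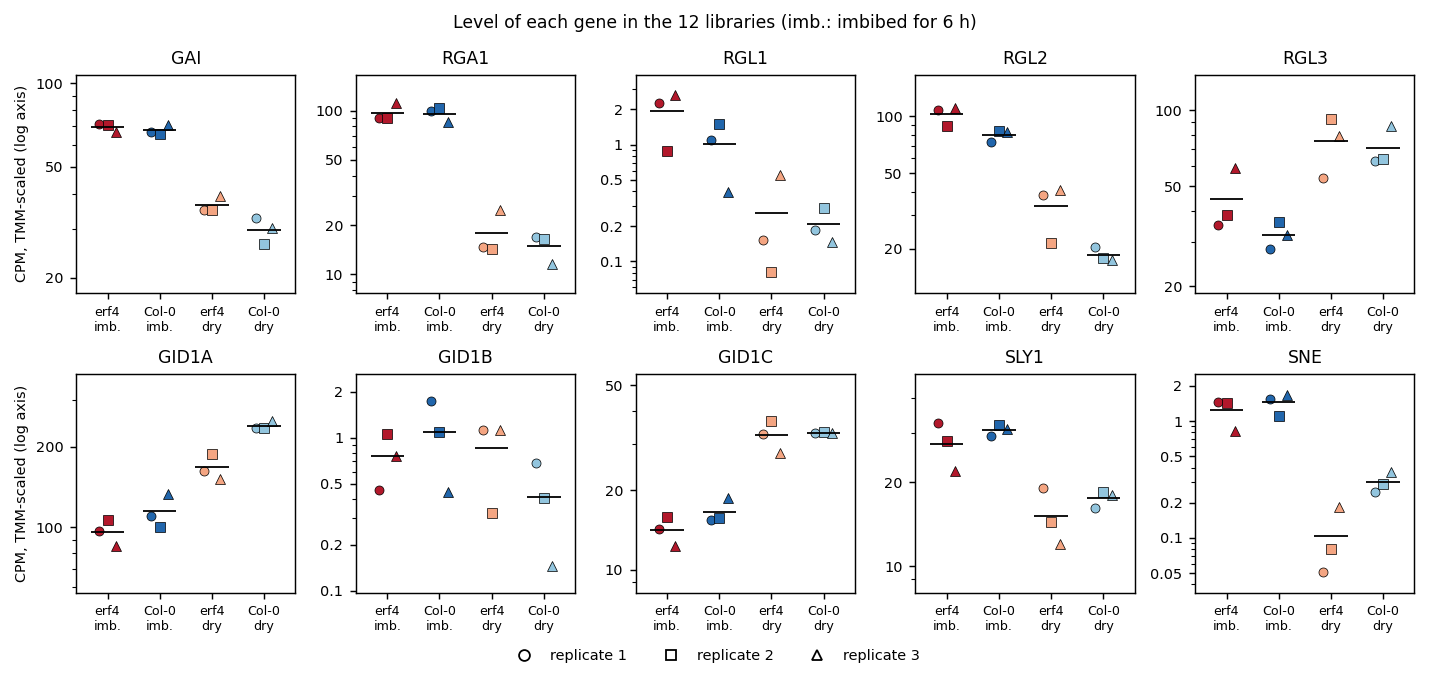
CPM, TMM-scaled (vertical log axes), of the 10 genes in every library, by genotype label and seed state (horizontal axis); symbols mark the replicate number and horizontal lines the group mean. Imbibed libraries lie above dry ones for GAI, RGA1, RGL2, SLY1 and SNE, and below them for GID1A and GID1C.

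Of the receptors, GID1A and GID1C fell in imbibed seeds. GID1A had 96.9, 106.8 and 85.5 CPM in imbibed seeds labelled erf4, against 162.7, 187.6 and 152.1 CPM in dry ones. In Col-0 it had 110.5, 100.3 and 133.5 CPM in imbibed seeds, against 235.1, 235.5 and 248.9 CPM in dry ones. The states were apart in both genotypes, with log2 fold changes of −0.80 ± 0.14 in libraries labelled erf4 (adjusted p = 0.00027, edgeR) and −1.06 ± 0.14 in Col-0 (adjusted p = 3.0e-05, edgeR). With total counts they were −0.29 in libraries labelled erf4 (adjusted p = 0.0434) and −0.58 in Col-0, both still called.

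GID1C, the closest relative of GID1A, fell as well. It had 14.2, 15.8 and 12.3 CPM in imbibed seeds labelled erf4, against 32.8, 36.7 and 27.7 CPM in dry ones. Imbibed Col-0 seeds had 15.5, 15.6 and 18.7 CPM, against 32.9, 33.3 and 32.9 CPM in dry ones. No imbibed library reached a dry one. The log2 fold change was −1.20 ± 0.14 in libraries labelled erf4 (adjusted p = 1.4e-05, edgeR) and −0.99 ± 0.14 in Col-0 (adjusted p = 7.0e-05, edgeR), and with total counts it was −0.69 in libraries labelled erf4 and −0.51 in Col-0, called in both.

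GID1B, the third receptor, had few counts. It had 22, 48 and 38 counts in imbibed seeds labelled erf4, against 44, 8 and 37 counts in dry ones, and 69, 46 and 18 counts in imbibed Col-0 seeds, against 22, 14 and 4 counts in dry ones. The states overlapped in both genotypes. Its log2 fold change of −0.18 in libraries labelled erf4 had a 95% interval of −1.74 to 1.37, and that of 1.38 in Col-0 an interval of −0.23 to 3.00 (adjusted p = 0.113, edgeR). With total counts the Col-0 value was 1.85 and was called (adjusted p = 0.0478), and that of the libraries labelled erf4 turned to 0.27. The Col-0 interval does not include a fall of the size seen for GID1A or GID1C, and the interval of the libraries labelled erf4 includes both.

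Both F-box transcripts rose. SLY1 had 32.5, 28.1 and 22.0 CPM in imbibed seeds labelled erf4, against 19.1, 14.4 and 12.04 CPM in dry ones. In Col-0 it had 29.3, 32.2 and 31.1 CPM in imbibed seeds, against 16.1, 18.5 and 18.1 CPM in dry ones. Imbibed libraries were above dry ones throughout, by a log2 fold change of 0.86 ± 0.18 in libraries labelled erf4 (adjusted p = 0.00114, edgeR) and 0.81 ± 0.18 in Col-0 (adjusted p = 0.00177, edgeR).

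SNE, its homologue, was much lower in level. It had 70, 64 and 41 counts in imbibed seeds labelled erf4, against 2, 2 and 6 counts in dry ones, and 62, 47 and 68 counts in imbibed Col-0 seeds, against 8, 10 and 10 counts in dry ones. The states did not overlap. SNE rose by 3.52 ± 0.59 in libraries labelled erf4 (adjusted p = 0.00023, edgeR) and 2.26 ± 0.53 on the log2 scale in Col-0 (adjusted p = 0.00292, edgeR). With the letter of the library name as a covariate the Col-0 value was 1.75 and not called (adjusted p = 0.0602). SNE made up 4.54% of the summed F-box TPM in imbibed seeds labelled erf4, 4.81% in imbibed Col-0 seeds, 0.830% in dry seeds labelled erf4 and 1.80% in dry Col-0 seeds, so that SLY1 supplied nearly all of it in each group. That sum was 45.1 ± 5.91 TPM in imbibed and 15.4 ± 3.53 TPM in dry seeds labelled erf4, and 47.8 ± 2.80 TPM in imbibed and 17.5 ± 1.04 TPM in dry Col-0 seeds (SD, n = 3 each). It carries no TMM factor, so its rise is larger than on the TMM scale.

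Over all 10 genes, imbibed and dry CPM did not overlap for 8 members in libraries labelled erf4, against 58.5% of all genes tested, and for 9 members in Col-0, against 65.8%. Of these, 6 were higher and 2 lower in imbibed seeds labelled erf4, where 31.1% of all genes were apart and higher and 27.5% apart and lower. In Col-0 6 were higher and 3 lower, where 34.7% of all genes were apart and higher and 31.1% apart and lower. GID1B overlapped in both genotypes, and RGL3 did in libraries labelled erf4. The summed pollen marker level moved with seed state too. It was 5.43 to 8.54 CPM in imbibed and 34.8 to 75.0 CPM in dry libraries labelled erf4, and 5.16 to 8.84 CPM in imbibed and 284.6 to 486.2 CPM in dry Col-0 libraries. All 10 pollen markers fell in both genotypes and none was at 0 throughout a group. The summed seed markers were 65713 to 101252 CPM in imbibed and 132129 to 165734 CPM in dry libraries labelled erf4, and 84361 to 132874 CPM in imbibed and 166308 to 230022 CPM in dry Col-0 libraries. Of the 10 seed markers, none at 0 throughout a group, 8 fell in libraries labelled erf4 and 7 in Col-0 on the TMM scale. With total counts only CRU2, SESA3, EM6 and TIP3-1 fell in Col-0. The same genes with OLEO1, OLEO2 and EM1 fell in libraries labelled erf4. Of the pollen markers, AGP11 was then no longer called in libraries labelled erf4. The part of either list in the results was not tested.

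Receptor transcripts were set against repressor transcripts within each library, where a scaling factor common to all genes cancels. The ratio of summed GID1 TPM to summed DELLA TPM was 0.445, 0.524 and 0.344 in imbibed seeds labelled erf4, and 1.68, 1.67 and 1.19 in dry ones. In Col-0 it was 0.583, 0.494 and 0.693 in imbibed seeds and 2.45, 2.61 and 2.34 in dry ones. Imbibed and dry libraries did not overlap. In dry seeds the libraries labelled erf4 lay below those of Col-0 (1.51 ± 0.279 against 2.47 ± 0.134, SD, n = 3 each), and in imbibed seeds the genotypes overlapped (0.438 ± 0.091 against 0.590 ± 0.10). As a sum over chosen genes the ratio was given no test. GID1A supplied 86.3% of the summed GID1 TPM in imbibed seeds labelled erf4, 86.2% in imbibed Col-0 seeds, 82.97% in dry seeds labelled erf4 and 87.4% in dry Col-0 seeds.

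**Figure D3:**
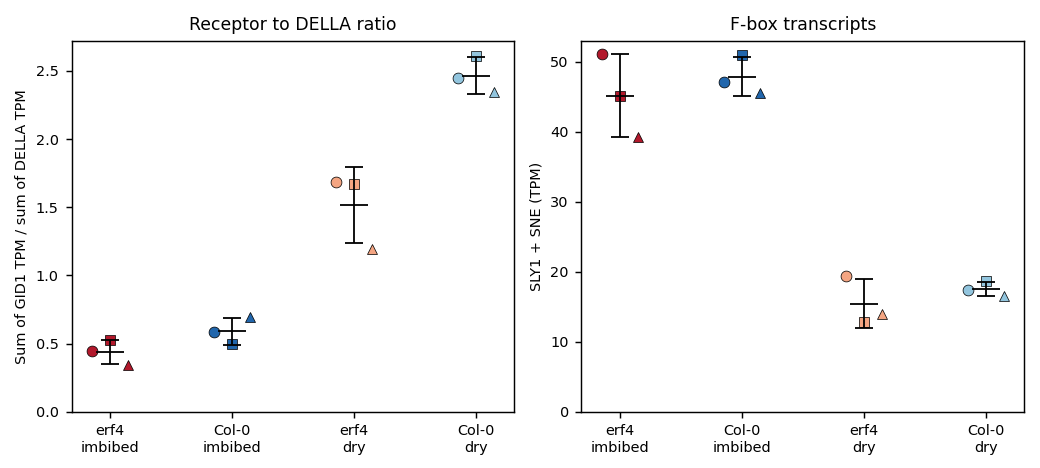
Ratio of summed GID1 to summed DELLA TPM (left, no unit) and summed TPM of SLY1 and SNE (right) in each library by genotype label and seed state; points are libraries and bars mean ± SD (n = 3). The ratio lies between 0.344 and 0.693 in the 6 imbibed libraries and between 1.19 and 2.61 in the 6 dry ones.

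Between genotypes, no member was called in dry seeds. By edgeR's quasi-likelihood test 0 of 10 passed, against 1.1% of all genes tested (0.519% higher and 0.577% lower in libraries labelled erf4). DESeq2 called 2 members, against 5.07% of the genes for which it gave an adjusted p, and 4 members had an unadjusted edgeR p under 0.05, against 15.6% of all genes. Dry seeds labelled erf4 and dry Col-0 seeds did not overlap for 2 higher (GAI and RGL2) and 2 lower members (GID1A and SNE), while 8.18% of all genes were apart and higher and 10.5% apart and lower.

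RGL2 had the smallest adjusted p of the 10. Its dry levels, given above, were 38.6, 21.5 and 40.6 CPM in libraries labelled erf4, against 20.5, 17.8 and 17.5 CPM in Col-0. Replicates 1 and 3 labelled erf4 were well above Col-0 and replicate 2 only just. The log2 fold change was 0.85 ± 0.19 (adjusted p = 0.0528, edgeR). Without dry replicate 2 labelled erf4 it was 1.09 and was called (adjusted p = 0.0037), and DESeq2 called it at 0.84 (adjusted p = 0.0033). Leaving out 1 library at a time gave 0.70 to 1.09, and over 23 alternatives the adjusted p reached 0.181 (edgeR). ERF4 stood at 3.88, 9.003 and 15.3 CPM in the same libraries, and a relation of RGL2 to ERF4 was not tested. Summed green tissue markers (8 photosynthesis genes, of which 5 were tested and 0 called) were 116.2, 76.8 and 199.4 CPM in them, with the lowest value in replicate 2, against 52.1, 58.7 and 69.0 CPM in dry Col-0 libraries. Most of that sum was 1 gene, RBCS1A, a subunit of Rubisco, at a mean of 111.9 CPM in dry seeds labelled erf4 and 46.3 CPM in dry Col-0 seeds. Among dry libraries labelled erf4, replicate 2 also had the highest sum of seed markers (132129, 165734 and 136680 CPM). It had the lowest sum of pollen markers too (75.0, 34.8 and 62.3 CPM). Whether any of these marker levels has a part in the RGL2 value was not tested.

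GID1A was lower in dry seeds labelled erf4, at 162.7, 187.6 and 152.1 CPM, against 235.1, 235.5 and 248.9 CPM in dry Col-0 seeds. The groups were apart, by a log2 fold change of −0.52 ± 0.14 that was not called by edgeR (adjusted p = 0.0859) and was called by DESeq2 (−0.53, adjusted p = 0.0141). No other alternative called GID1A. Over 23 alternatives its value ranged from −0.61 to −0.42, and the adjusted p reached 0.229 (edgeR). GAI differed by 0.29 ± 0.11 (adjusted p = 0.222, edgeR). SNE, at 2 to 6 counts in dry libraries labelled erf4 and 8 to 10 counts in dry Col-0 libraries, differed by −1.49 ± 0.61 (adjusted p = 0.254, edgeR). Each of these SNE counts was even, as most low counts in these data were, so they are not independent reads. The other 6 members overlapped between the genotypes, with 95% intervals of −0.22 to 0.74 for RGA1, −0.43 to 0.60 for RGL3, −0.35 to 0.29 for GID1C and −0.62 to 0.20 for SLY1, and wider ones for RGL1 and GID1B. Dry libraries of the 2 labels also differed in pollen markers, of which 9 of 10 were lower in those labelled erf4 (sums above), and seed markers, of which 0 of 10 were called, summed to 132129 to 165734 CPM in libraries labelled erf4 and 166308 to 230022 CPM in Col-0. Their part in these values was not tested.

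In imbibed seeds no member was called either by edgeR (0 of 10, against 0.0212% of all genes tested, 0.0159% higher and 0.00529% lower). DESeq2 called 0, against 3.16% of the genes to which it gave an adjusted p, and 0 had an unadjusted edgeR p under 0.05, against 15% of all genes. RGL2 had the only pair of groups that did not overlap, at 107.7, 89.0 and 110.8 CPM in libraries labelled erf4, against 73.0, 83.9 and 82.2 CPM in Col-0, while 25.8% of all genes were apart (13.1% higher and 12.7% lower). Its log2 fold change was 0.36, with a 95% interval of −0.08 to 0.80 (adjusted p = 0.386, edgeR). Summed green tissue markers were 150.2, 102.7 and 146.2 CPM in these libraries labelled erf4, again lowest in replicate 2, against 50.3, 74.7 and 71.2 CPM in Col-0. Replicate 2 labelled erf4 also had the highest sums of seed markers (65713, 101252 and 73800.5 CPM) and of pollen markers (6.46, 8.54 and 5.43 CPM). The part of these marker levels was not tested. For GAI the value was 0.04 (−0.22 to 0.29), for RGA1 0.02 (−0.44 to 0.48) and for SLY1 −0.16 (−0.57 to 0.24). RGL3 stood at 0.46 (−0.05 to 0.98), GID1A at −0.25 (−0.57 to 0.06) and GID1C at −0.23 (−0.56 to 0.09). RGL1, GID1B and SNE, with few counts, had intervals more than 2 log2 units wide.

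The difference between the genotypes in their response to imbibition, the change in libraries labelled erf4 minus that in Col-0, was not called for any member by edgeR (0 of 10, where 0% of all genes tested passed). DESeq2 called 0 members, against 1.05% of the genes to which it gave an adjusted p, and 0 had an unadjusted edgeR p under 0.05, against 10.5% of all genes. It was −0.49 for RGL2 (95% interval −1.12 to 0.13), −0.25 for GAI, −0.24 for RGA1, 0.38 for RGL3, 0.27 for GID1A and −0.20 for GID1C, and 0.04 for SLY1. GID1B, at −1.57, and SNE, at 1.26, had the largest values and intervals that included 0. With the number as a block within the libraries labelled erf4, whose dry and imbibed samples of equal number deviated together, 180 of all genes and 0 members were called. The imbibition responses of the 10 genes are thus not shown to differ between the labels.

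**Figure D4:**
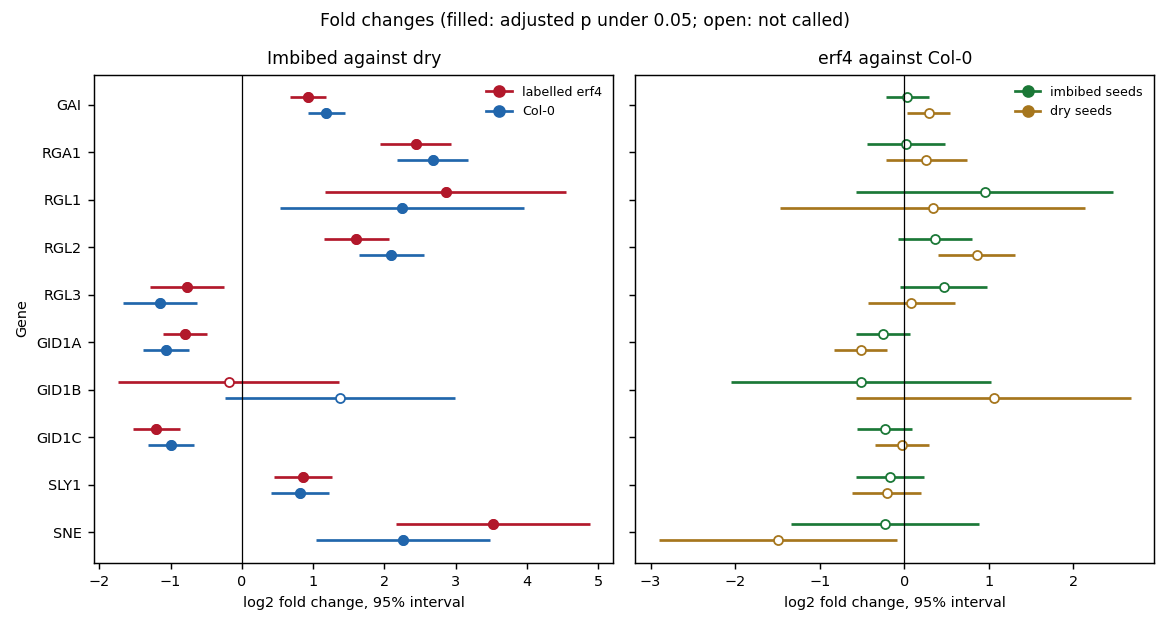
Log2 fold change (horizontal axis) with its 95% interval for each gene (vertical axis): left, imbibed against dry seeds in libraries labelled erf4 and in Col-0; right, libraries labelled erf4 against Col-0 in imbibed and dry seeds. Filled points have an adjusted p under 0.05 by edgeR, which holds for 9 genes in each imbibition contrast and for none between genotypes.

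Genes around the receptor module were read from lists of its known partners. Gibberellin synthesis has 14 listed genes, of which 10 were tested. In imbibed against dry seeds 5 rose and 1 fell in libraries labelled erf4, with a list median of 0.90, and 5 rose and 2 fell in Col-0, with a median of 1.336. With total counts 6 rose and 0 fell in each genotype, and with the number as a block within the libraries labelled erf4, 4 rose and 2 fell in those. Both medians are the same with genes without a dry count set to a floor of 3 counts over the group. GA3OX1 and GA3OX2, the gibberellin 3-oxidases that make the active hormone, had no count in any dry library. Against that floor, they were 103-fold and 107-fold higher in imbibed seeds labelled erf4 and 73.1-fold and 38.9-fold higher in imbibed Col-0 seeds. Of counts from 1 to 10, 77.6% were even, so the floor may be too low and these folds are no firm lower bounds. GA20OX3, a gibberellin 20-oxidase one step upstream, averaged 102.8 ± 30.5 CPM in imbibed and 16.3 ± 3.92 CPM in dry seeds labelled erf4, and 124.1 ± 6.11 CPM in imbibed and 8.76 ± 2.34 CPM in dry Col-0 seeds (SD, n = 3 each). Its log2 fold change was 2.66 in libraries labelled erf4 and 3.82 in Col-0, and GA20OX2 had 3.17 in libraries labelled erf4 and 3.11 in Col-0.

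Of 9 genes for gibberellin inactivation, 3 were tested. GA2OX6, a gibberellin 2-oxidase, fell in libraries labelled erf4 (log2 fold change −2.36, adjusted p = 4.1e-05, edgeR) and in Col-0 (−1.45, adjusted p = 0.0015, edgeR). GA2OX2 fell (−1.53) and GA2OX3 rose (4.34, on 33 to 134 counts in imbibed libraries) in libraries labelled erf4; without both libraries of number 1 labelled erf4 the GA2OX3 change was no longer called. Neither was called in Col-0 on the TMM scale, while with total counts GA2OX3 had 2.85 there and was called (adjusted p = 0.0456, edgeR). The list median was −1.53 in libraries labelled erf4 and −0.48 in Col-0.

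The genes that modify DELLA proteins or form the core of their ubiquitin ligase were 10, all tested. On the TMM scale 1 rose and 4 fell in libraries labelled erf4 (median −0.28), and 2 rose and 7 fell in Col-0 (median −0.43), while with total counts 4 rose and 0 fell in libraries labelled erf4 and 3 rose and 0 fell in Col-0. The falls therefore depend on the scaling. CUL1, the cullin scaffold of the ligase, had log2 fold changes of −0.43 in libraries labelled erf4 and −0.55 in Col-0, and with total counts 0.080 in libraries labelled erf4 and −0.058 in Col-0. ASK1, its SKP1-like adaptor, had −0.84 in libraries labelled erf4 and −0.42 in Col-0, and with total counts −0.32 in libraries labelled erf4 and 0.063 in Col-0. SEC, an O-GlcNAc transferase that modifies DELLA proteins, had −0.36 in libraries labelled erf4 and −0.63 in Col-0, and with total counts 0.14 in libraries labelled erf4 and −0.15 in Col-0. SPY, an O-fucosyltransferase that acts on the same proteins, had −0.20, which was not called, in libraries labelled erf4 and −0.44 in Col-0, and with total counts 0.31 in libraries labelled erf4 and 0.040 in Col-0. RBX1, the RING subunit of the ligase, had −0.46 in libraries labelled erf4 and −0.50 in Col-0, and with total counts 0.049 in libraries labelled erf4 and −0.014 in Col-0. TOPP4, a phosphatase known to act on DELLA proteins, rose in Col-0 on both scales (0.52 by TMM and 1.01 by total counts). With total counts it also rose in libraries labelled erf4 (0.55, adjusted p = 0.0030, edgeR). OTS1, a SUMO protease, rose in libraries labelled erf4 on both scales (0.73 by TMM and 1.24 by total counts). In Col-0 OTS1 averaged 22.1 CPM in imbibed and 16.3 CPM in dry seeds, and with total counts it rose there too (0.92, adjusted p = 0.00027, edgeR). Its annotated span overlaps that of AT1G60230 on the other strand, and how reads there were assigned is not given in the sources used here. Between genotypes, SEC was lower in dry seeds labelled erf4 (145.4 ± 7.90 CPM against 200.3 ± 6.50 CPM in Col-0, SD, n = 3 each, log2 fold change −0.46, adjusted p = 0.0475, edgeR), and the call was lost under 18 of 23 alternatives. No other gene of the gibberellin and DELLA lists was called between genotypes in either state. The pollen markers, given above, are not part of these lists.

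Among 13 partners and upstream regulators of DELLA proteins, 3 rose and 4 fell in libraries labelled erf4 (median 0.03) and 4 rose and 4 fell in Col-0 (median 0.12). PIF4, a light-regulated factor that DELLA proteins bind, had log2 fold changes of 2.00 in libraries labelled erf4 and 2.03 in Col-0. PIF5, its relative, had −2.06 in libraries labelled erf4 and −1.77 in Col-0. PIF1, a repressor of germination in the dark that is known to raise GAI and RGA1 expression, averaged 105.9 ± 10.5 CPM in imbibed and 50.2 ± 5.15 CPM in dry seeds labelled erf4, and 95.5 ± 11.2 CPM in imbibed and 53.8 ± 3.68 CPM in dry Col-0 seeds (SD, n = 3 each), with log2 fold changes of 1.08 in libraries labelled erf4 and 0.83 in Col-0. BRG3, a RING protein of the BOI family that binds DELLA proteins, fell by 1.87 in libraries labelled erf4 and by 1.602 in Col-0 on the log2 scale. BOI itself had −1.19 in libraries labelled erf4 and −1.599 in Col-0, and ENY, a zinc finger protein, fell by 1.61 in libraries labelled erf4 and by 1.32 in Col-0. Total counts gave the same direction and call for each of these 6 genes in both genotypes.

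Downstream of DELLA proteins in seeds, 10 of 11 listed genes were tested. Of these, 4 rose and 2 fell in libraries labelled erf4 (median 0.15). In Col-0 3 rose and 2 fell (median −0.14, also with a gene at the floor of 3 counts). With total counts 6 rose and 0 fell in libraries labelled erf4 and 4 rose and 1 fell in Col-0. EXPA1 and EXPA8, expansins that loosen cell walls, both rose, and the log2 fold changes were 4.93 and 4.18 in libraries labelled erf4 and of 6.00 and 3.62 in Col-0. GASA6, a gibberellin-induced peptide, had 56 to 194 counts in imbibed seeds labelled erf4 (log2 fold change 3.86) and 12 to 36 counts in imbibed Col-0 seeds. No dry Col-0 library had a count of GASA6, and its imbibed level there was 15.4-fold above the same floor, again no firm bound. It lies opposite AT1G74675, which had at most 7 counts in any library. EXPA2 rose in libraries labelled erf4 (3.35, groups overlapping), a call lost under 7 alternatives, and it lies opposite AT5G05300. MYB101, a GAMYB-like factor, fell by 0.99 in libraries labelled erf4, where the call was lost with total counts, and by 1.51 in Col-0.

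For each member called in both imbibition contrasts, the nearest tested genes were found by the root mean square difference of log2 CPM over the 12 libraries, each gene centred on its own mean. GAI was nearest to STRS1 (0.113) and CYP705A21 (0.117), RGA1 to AT1G59710 (0.229) and NRT1.1 (0.251), and RGL2 to AT1G63660 (0.210) and RPS6 (0.216). RGL3 was nearest to AT5G27410 (0.213) and ABCG7 (0.214), and RGL1 to AT5G52655 (0.398) and ABCG32 (0.404). GID1A had the closest match of all, BETA-VPE (0.0833), followed by FER2 (0.112). GID1C was nearest to AT1G21080 (0.0927) and AT3G15260 (0.101), SLY1 to AT3G58760 (0.124) and AT5G28300 (0.134), and SNE to AT2G44800 (0.392) and AT2G08725 (0.415). No member was among the 2 nearest genes of another. RGL1 and SNE, with few counts, had the largest distances. The distance is not divided by a gene's own spread over the libraries. That spread was also largest for RGL1 and SNE (1.41 each on the log2 scale, against 0.470 for SLY1).

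ERF proteins are known to bind the GCC box, and PIF proteins the G-box, so both motifs were sought on either strand in the 1000 bases before each gene start. The GCC box (GCCGCC) was in 2 of the 10 members, RGL3 and SLY1, and in 8.44% of 27443 protein-coding genes. The windows around them are shown because RGL3 fell and SLY1 rose on imbibition and neither was called between genotypes. They are given 5′ to 3′ on the strand of the gene in TAIR10.1, with the motif in capitals, at chr5:5766617-5766666 on the minus strand and chr4:12562306-12562355 on the plus strand.
RGL3: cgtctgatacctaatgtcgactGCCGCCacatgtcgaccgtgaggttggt
SLY1: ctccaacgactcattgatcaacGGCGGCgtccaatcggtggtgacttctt
The motif lay 398 bases before the start of RGL3 and 951 bases before that of SLY1, where it is on the opposite strand. The G-box (CACGTG) was in 1 of the 10, GAI, 911 bases before the start, and in 14.8% of protein-coding genes. A match is a run of letters and not a shown binding site.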

How the data were processed

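RNA from freshly harvested Arabidopsis seeds was sequenced as read pairs in 12 libraries, grouped by their labels. A gene by library table of raw counts, with exonic lengths, was deposited by the authors in the layout of featureCounts, per the file headers. HISAT2 2.1.0, DESeq2 1.34.0, fastp 0.20.0 and featureCounts 2.0.1 are named, with build TAIR10, in the submitters' processing notes; strand and pair settings are not given in the sources used here. Of counts from 1 to 10, 77.6% were even, against 50.1% of counts over 1000, so low counts are not independent reads. A floor of 3 counts may thus be too low and is no firm bound.

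The members and lists were chosen with earlier results of these data known. R 4.3.3 and edgeR 4.0.16 were used, and 18897 genes, holding 99.97% of counts, passed filterByExpr. All libraries entered 1 robust quasi-likelihood fit of the 4 group means (TMM factors, 8 residual degrees of freedom and a common biological coefficient of variation of 0.241). Contrasts were tested by the quasi-likelihood F test and called below 0.05 after Benjamini-Hochberg adjustment across every gene tested. TPM was computed from the counts and lengths without scaling factors. Log2 CPM for the likeness of patterns used a prior count of 2. Alternatives were DESeq2 1.42.0, other scaling and filters, the replicate number as a block, the letter ending a library's name as a covariate, only the groups compared, and leaving out libraries.

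All 10 members were named, up to 4 called genes of each list and contrast by size of change, CUL1, ASK1, SPY and PIF1 whatever their values, and the 2 nearest genes of each member called in both imbibition contrasts. Symbols came from RefSeq. Of 32548 nuclear genes, 99.95% had the same start and end in TAIR10.1, all members included; copies were sought with BLAST 2.17.0 and coding sequences aligned with Biopython 1.88. Pairing by replicate number was checked by correlating deviations from the group means. Dry and imbibed libraries labelled erf4 of equal number correlated at 0.341 to 0.35, and those of unequal number at −0.214 to −0.115, so the numbers were taken to pair these libraries, from the data and not from the labels, and a block within them was added after seeing the data. In the other 5 pairs of groups at least 1 same-number correlation was under 0.1 (range −0.277 to 0.215), and the numbers were not taken as pairs. Of these, dry and imbibed Col-0 libraries of equal number correlated at 0.0655 to 0.215, and those of unequal number at −0.15 to 0.0535. The ranges did not overlap but lay closer together than in libraries labelled erf4. A block within Col-0 alone was not fitted, so a weaker pairing there was not tested.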

Additional observations from a re-analysis of the deposited data

How the results depend on the processing

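Of 1148 values of the 10 genes under alternatives, 1108 kept their direction and side of the threshold, 7 lost and 7 gained a call, and 26 changed sign, none of them a called value. The 9 calls of each imbibition contrast numbered 7 to 10 in Col-0 and 8 or 9 in libraries labelled erf4 under every alternative run. The count of calls in dry seeds between genotypes, 0, became 1 without the filter, 1 with the covariate from the library name, 2 with DESeq2 and 1 without both libraries of number 2 labelled erf4, and 0 to 1 leaving out 1 library. Over all genes that contrast called 207 genes, against 940 with DESeq2, 464 with the covariate, 114 with only the groups compared, and 69, 384 and 368 without both libraries labelled erf4 of number 3, 1 and 2. Leaving out 1 library gave 41, 81 and 56 without dry Col-0 replicate 1, 2 and 3, 80 without dry erf4 replicate 3, 129 without imbibed Col-0 replicate 2, and 139 to 284 otherwise. In imbibed seeds 4 genes compared with 527 with DESeq2, 386 without both libraries of number 2, 18 without the filter and 4 to 47 leaving out 1 library (47 without imbibed erf4 replicate 2), and the interaction's 0 with 191 by DESeq2, 12 without both libraries of number 1, 4 without the filter and 0 to 15 leaving out 1 library (15 without dry erf4 replicate 1).

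The replicate number as a block over all libraries changed no member call: 0 between genotypes in dry and in imbibed seeds, 9 in Col-0, 9 in libraries labelled erf4 and 0 for the interaction. A block within the libraries labelled erf4 called 9 members on imbibition (11690 of all genes, against 10496) and 0 for the interaction (180 of all genes, against 0), and of the listed genes it moved calls to 1 higher and 5 lower modifiers and 4 higher and 5 lower partners. Of all 12 libraries 4 correlated best with a library of their own number. Sign changes of uncalled log2 fold changes were as follows, and their cause was not tested. In dry seeds, leaving out both libraries of number 3 labelled erf4 gave RGA1 −0.039, RGL1 −0.77 and GID1C 0.078. Total counts gave GID1C 0.071. RGL3 was −0.12 with the covariate and −0.095 without both libraries of number 2. In imbibed seeds RGA1 was −0.087 without both libraries of number 3. GID1B on imbibition in libraries labelled erf4 was 0.22 with the covariate, 0.27 with total counts, and 0.038 and 0.31 without both libraries of number 3 and 1. The SLY1 interaction was −0.013 with the covariate and −0.00768 without both libraries of number 2. Leaving out 1 library at a time gave ranges of −0.043 to 0.40 (RGA1), −0.77 to 0.72 (RGL1), −0.094 to 0.27 (RGL3) and −0.13 to 0.072 (GID1C) in dry seeds, −0.080 to 0.079 for RGA1 in imbibed seeds, −0.56 to 0.076 for GID1B, and −0.38 to 0.063 (RGA1) and −0.11 to 0.25 (SLY1) for the interaction. The filter of 1 CPM in 6 libraries left out RGL1 and GID1B, a fit of only the dry groups RGL1 and SNE, and the interaction has no smaller set of groups. Shares without length moved by at most 1.20 percentage points. RGL1, GID1B and SNE had the widest intervals of the 10 genes and at most 132 counts in a library.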
